A study of Mus musculus with 4 samples.

Results

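The genes of selective autophagy described here are 10 of the 24527 genes counted in the read table: the cargo receptors Sqstm1, Nbr1 and Optn, the ATG8 genes Gabarap, Gabarapl1, Gabarapl2, Map1lc3a and Map1lc3b, the initiating kinase Ulk1 and the membrane-binding factor Wipi1. They were taken by gene symbol, and the set was built around Sqstm1, which held the fourth highest read number of the spheroid library. That rank was part of the choice, so the level of Sqstm1 in spheroids is a description and not a finding. In the ranking of spheroid reads, Sqstm1 had 997156 reads and the fifth gene, Eef2, had 989745. The genes just above and just below this pair were Aldoa with 1591533 reads and Gpnmb with 629711.

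RNA came from B16F10, a transplantable mouse melanoma line derived from C57BL/6, with a genotype given as wild type in all libraries. For the cultures, the methods name a B16F10 line that carries cytoplasmic turbo-GFP (Linterna), grown as hanging-drop spheroids with NIH/3T3 mouse fibroblasts, as a 2D co-culture with NIH/3T3 cells, or alone as a 2D monolayer, here called the monolayer. GFP-positive living cells were sorted from the cultures before RNA extraction. The fourth library came from tumors grown under the skin of both flanks of year-old female C57BL/6 mice. Its label describes frozen tumor and the methods describe sorted cells, and the methods mention replicate RNA isolations without saying whether these were pooled into the 1 library given for each condition. The sources name no drug or other agent for any group.

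Each of the 4 conditions has 1 library, so no difference has a replicate check and no test between conditions was made. The totals lay between 118896900 and 150028663 reads. Levels are CPM, read counts brought to a common total with TMM factors, which correct for the composition of each library, and all 10 genes averaged at least 1 CPM over the 4 libraries, as did 12728 genes in all. Intervals are 95% intervals of the read share and cover counting error only. Melanocyte markers summed to between 11420 CPM in spheroids and 20122 CPM in the tumor, and none of the 8 lacked reads in any library. Markers of host cell types were high in the tumor library. Its 8 myeloid markers summed to 1641 CPM against 9.97 to 29.9 CPM in the cultures, its 8 fibroblast markers to 2718 CPM against 17.6 to 679 CPM, and its 6 endothelial markers to 244 CPM against 1.23 to 4.55 CPM. Its 6 skeletal muscle markers summed to 4742 CPM against 3.28 to 12.6 CPM, and its 4 adipocyte markers to 791 CPM against 0.674 to 1.28 CPM. In the cultures, 1 myeloid marker and 2 muscle markers, Myh4 among them, had no read in the monolayer, and all other markers had reads in every library. Lyz2 of myeloid cells stood at 1032 CPM in the tumor and Acta1 of muscle at 1360 CPM. Among the cultures, Col1a2 stood at 514 CPM in 2D co-culture and at 4.05 CPM or less in the other two. In such bulk samples, fewer cells of a type and less RNA per cell cannot be told apart, and the part of host cells in the tumor values below, or of fibroblasts in those of 2D co-culture, was not tested.

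In macroautophagy a double membrane grows around cargo, closes into an autophagosome and fuses with a lysosome. The ULK1 kinase complex starts the process, and WIPI proteins bind the phosphatidylinositol 3-phosphate of the growing membrane. Proteins of the ATG8 family (the LC3 and GABARAP branches) are trimmed by ATG4 proteases and then joined to the lipid phosphatidylethanolamine, and receptors such as p62 (Sqstm1), NBR1 and optineurin hold ubiquitinated cargo at one end and ATG8 at the other. p62 is itself degraded with its cargo, so that its protein and its mRNA can move apart, and only mRNA was measured here. Sqstm1 is also a known target gene of NRF2, and many autophagy and lysosome genes are targets of TFEB, TFE3 and MITF.

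Sqstm1 was by far the most abundant of the 10 genes, and its level differed most between libraries. It lies on the minus strand of chromosome 11 at 50199366 to 50210827 (GRCm38, the assembly called mm10, which the submitters' notes name). It stood at 7323 CPM (interval 7308 to 7337) in spheroids, 4733 CPM (4722 to 4745) in the monolayer, 2792 CPM (2782 to 2801) in 2D co-culture and 701 CPM (697 to 705) in the tumor. No intervals overlapped. Sqstm1 took 0.665% of all spheroid reads, 0.466% in the monolayer, 0.269% in 2D co-culture and 0.0816% in the tumor. Its rank among all genes went from 4 in spheroids to 9, 20 and 128 in the same order of libraries. Per kb of transcript, a scale on which genes can be compared, Sqstm1 stood first of the 10 in every library, from 248 CPM per kb in the tumor to 2594 CPM per kb in spheroids.

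Gabarapl1 and Ulk1 followed the same order of libraries as Sqstm1: spheroid, monolayer, 2D co-culture, tumor. Gabarapl1, an ATG8 gene of the GABARAP branch, stood at 701 CPM (697 to 706) in spheroids, 378 CPM in the monolayer, 276 CPM in 2D co-culture and 89.2 CPM (87.8 to 90.7) in the tumor. Ulk1, the kinase that starts autophagosome formation, stood at 74.9 CPM in spheroids, 50.2 CPM in the monolayer, 36.1 CPM in 2D co-culture and 15.4 CPM in the tumor. Neighbours in these orders lay outside each other's counting intervals. The highest level exceeded the lowest 10.4-fold for Sqstm1, 7.86-fold for Gabarapl1 and 4.86-fold for Ulk1.

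**Figure D1:**
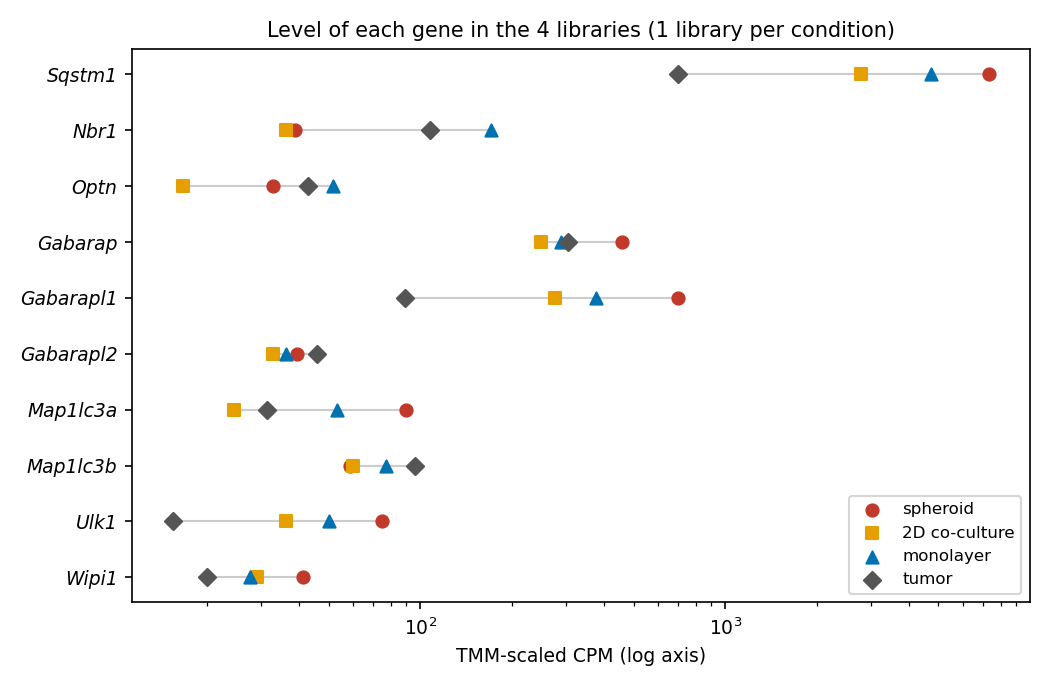
Levels of the 10 genes in the 4 libraries, in CPM on a log axis, with 1 point per library and a grey line from the lowest to the highest. Sqstm1 lies above all others, from 701 CPM in the tumor to 7323 CPM in spheroids, while Gabarapl2 stays between 32.8 and 45.7 CPM.

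The DNA just before the start sites of the 3 genes of this shared order is printed because it is where a common regulator could bind. The windows come from RefSeq (GRCm38.p6), whose table held 10 windows for 9 of the 10 genes, with none matched for Map1lc3a, and they end where the first annotated transcript begins. Sqstm1 is read from chr11:50210828-50211070 on the minus strand, Gabarapl1 from chr6:129532942-129533159 on the plus strand, and Ulk1 from chr5:110810098-110810331 on the minus strand. Capitals mark the GC box GGGCGG, or CCGCCC where it lies on the other strand.
Sqstm1: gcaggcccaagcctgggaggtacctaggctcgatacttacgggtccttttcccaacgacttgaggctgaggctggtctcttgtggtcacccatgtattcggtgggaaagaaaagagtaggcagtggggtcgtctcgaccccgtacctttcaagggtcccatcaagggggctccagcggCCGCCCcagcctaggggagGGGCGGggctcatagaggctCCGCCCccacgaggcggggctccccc
Gabarapl1: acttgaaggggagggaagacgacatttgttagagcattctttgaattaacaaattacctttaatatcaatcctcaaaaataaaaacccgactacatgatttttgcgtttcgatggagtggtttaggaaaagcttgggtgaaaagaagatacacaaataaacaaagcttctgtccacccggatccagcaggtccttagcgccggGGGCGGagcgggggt
Ulk1: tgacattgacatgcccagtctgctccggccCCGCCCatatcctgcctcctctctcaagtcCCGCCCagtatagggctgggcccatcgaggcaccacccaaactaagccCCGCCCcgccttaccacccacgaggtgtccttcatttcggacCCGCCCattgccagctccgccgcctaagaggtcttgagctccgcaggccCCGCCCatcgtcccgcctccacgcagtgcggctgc
These windows held 3 GC boxes for Sqstm1, 1 for Gabarapl1 and 5 for Ulk1, and their GC content was 64.2%, 43.6% and 66.2%. Motifs were searched on both strands from 250 bases before to 50 bases after each start site, in all 32851 such windows of the table. The GC box was in 8 of the 10 windows of these genes, against 35.7% of all windows, and was added to the search after the windows had been seen. Over the 250 bases before the start site, the 10 windows held from 46.4% GC (Gabarap) to 69.6% (Map1lc3b). The median of all windows was 52.4%, and whether the GC box share goes with GC content was not tested. The E-box CACGTG, the core bound by the TFEB family, was in 0 of the 10 windows and in 7.15% of all. The longer form TCACGTGA, which contains the E-box, was in 0 of the 10 and in 0.974% of all. The core of the antioxidant response element, TGACNNNGC, was in 1 of the 10, that of Map1lc3b, against 12.4% of all, and the ATF4 and CEBP core TGATGNAA was in 0, against 3.97%. These matches describe the letters in a short window and are not binding sites.

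Among the other receptors, Nbr1 and Optn had the order of levels monolayer, tumor, spheroid, 2D co-culture. Nbr1 encodes a ubiquitin-binding receptor that works with p62 and is also used in the degradation of peroxisomes. It stood at 170 CPM in the monolayer, 107 CPM in the tumor, 38.7 CPM in spheroids and 36.1 CPM in 2D co-culture, so that both co-cultured libraries lay far under the other two. Optn, a receptor for damaged mitochondria and bacteria, stood at 51.7 CPM in the monolayer, 42.8 CPM in the tumor, 32.8 CPM in spheroids and 16.6 CPM in 2D co-culture. Within a library, scaling between libraries plays no part, but the trends with GC content and length described below are not removed. There were 189 Sqstm1 reads for each Nbr1 read in spheroids, 77.3 in 2D co-culture, 27.8 in the monolayer and 6.54 in the tumor.

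The remaining genes varied less, Map1lc3a excepted. Map1lc3a, of the LC3 branch, stood at 89.7 CPM in spheroids, 53.1 CPM in the monolayer, 31.4 CPM in the tumor and 24.4 CPM in 2D co-culture. Gabarap stood at 458 CPM in spheroids, 304 CPM in the tumor, 289 CPM in the monolayer and 248 CPM in 2D co-culture. The spheroid thus held the highest level of both genes and the 2D co-culture the lowest. Map1lc3b, which encodes the LC3 protein most often used as an autophagosome marker, had the tumor highest and the spheroid lowest. It stood at 95.97 CPM in the tumor, 77.1 CPM in the monolayer, 60.2 CPM in 2D co-culture and 58.6 CPM in spheroids. Gabarapl2 stood at 45.7 CPM in the tumor, 39.5 CPM in spheroids, 36.3 CPM in the monolayer and 32.8 CPM in 2D co-culture, a 1.39-fold range and the narrowest of the 10. Wipi1 stood at 41.3 CPM in spheroids, 29.1 CPM in 2D co-culture, 27.5 CPM in the monolayer and 19.99 CPM in the tumor.

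Over the 10 genes, the spheroid was highest for 6 (Sqstm1, Gabarapl1, Gabarap, Map1lc3a, Ulk1 and Wipi1), the monolayer for 2 (Nbr1 and Optn) and the tumor for 2 (Map1lc3b and Gabarapl2). The 2D co-culture was lowest for 5, the tumor for 4 and the spheroid for 1. The same count over all genes was not made, and Sqstm1 was in part chosen by its spheroid reads. Of the 30 pairs of neighbouring levels, 2 had overlapping counting intervals, namely Map1lc3b in 2D co-culture and spheroid and Wipi1 in the 2D cultures. Together the 10 genes took 0.804% of the reads of the spheroid, 0.577% of the monolayer, 0.342% of the 2D co-culture and 0.169% of the tumor. Sqstm1 alone made up 82.7%, 80.7%, 78.6% and 48.3% of these.

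Whether the levels can be read as those of single genes was checked on the annotation. Exons of Sqstm1 overlap those of Mrnip on the opposite strand over 580 bases, 20.5% of the Sqstm1 exons, and the use of strand in the counting is not given in the sources used here. Mrnip was counted at 5.45 to 10.9 CPM, far under Sqstm1 in each library. Gabarapl1 overlaps 1700101I11Rik on the opposite strand over 377 bases (20.7%), which was counted at 0.191 to 0.683 CPM. Map1lc3b and Optn share 58 and 73 bases with opposite genes. Coding sequence of Gabarapl2 was at least 90% identical over at least 150 bases to 6 other annotated genes, and that of Map1lc3b to 5, and none of these copies is in the count table. Reads could be split with such copies, so the levels of Gabarapl2 and Map1lc3b are uncertain. The other 8 genes had no such copy.

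Within the ATG8 family the 5 genes differ enough from each other for reads to tell them apart. This leaves aside the copies of Gabarapl2 and Map1lc3b described above, which make the shares below uncertain. The closest pairs over the coding sequence were Map1lc3a and Map1lc3b, 76.5% identical, and Gabarap and Gabarapl1, 74.9% identical with a longest shared run of 17 bases. Coding bases 295 to 354 of the latter pair (GENCODE vM21 transcripts) hold that run and the end trimmed by ATG4, and the 13 bases that differ are in capitals.
Gabarap: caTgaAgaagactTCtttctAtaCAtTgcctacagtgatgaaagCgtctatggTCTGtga
Gabarapl1: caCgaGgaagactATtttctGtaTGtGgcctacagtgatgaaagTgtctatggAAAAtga
In percentage points, these 2 genes had the widest shifts in share within the family. Of the reads per kb of the 5 ATG8 genes, Gabarapl1 made up 45.2% in spheroids, 39.8% in the monolayer, 37.8% in 2D co-culture and 13.4% in the tumor. Gabarap made up 39.8%, 41.1%, 45.9% and 61.2% in the same libraries. On this per-kb scale Gabarapl1 led in spheroids alone, but in the monolayer it was close to Gabarap. In the tumor Gabarap held most of the family's reads. Without division by length, Gabarapl1 had more reads than Gabarap in each culture. There were 1.53 Gabarapl1 reads for each Gabarap read in spheroids, 1.30 in the monolayer, 1.11 in 2D co-culture and 0.294 in the tumor. Shares and ratios within a library, here and in the next paragraph, are without the correction for GC content and length described below.

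By counted reads, the LC3 genes were a smaller part of the family. Reads of Map1lc3b could be split with its copies, so its shares and ratios are uncertain. Map1lc3a made up 9.47% of the family's reads per kb in spheroids, 9.15% in the monolayer, 5.49% in 2D co-culture and 7.68% in the tumor. Map1lc3b made up 2.72% in spheroids, 5.84% in the monolayer, 5.94% in 2D co-culture and 10.3% in the tumor. Map1lc3a reads outnumbered those of Map1lc3b in spheroids, with 1.53 for each, and not in the monolayer (0.688), the 2D co-culture (0.406) or the tumor (0.327). Summed over the family, ATG8 reads came to 1347 CPM in spheroids, 833 CPM in the monolayer, 642 CPM in 2D co-culture and 566 CPM in the tumor. For each of these, Sqstm1 had 5.44, 5.68, 4.35 and 1.24 reads, so that the receptor was less abundant against its ATG8 partners in the tumor than in any culture.

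**Figure D2:**
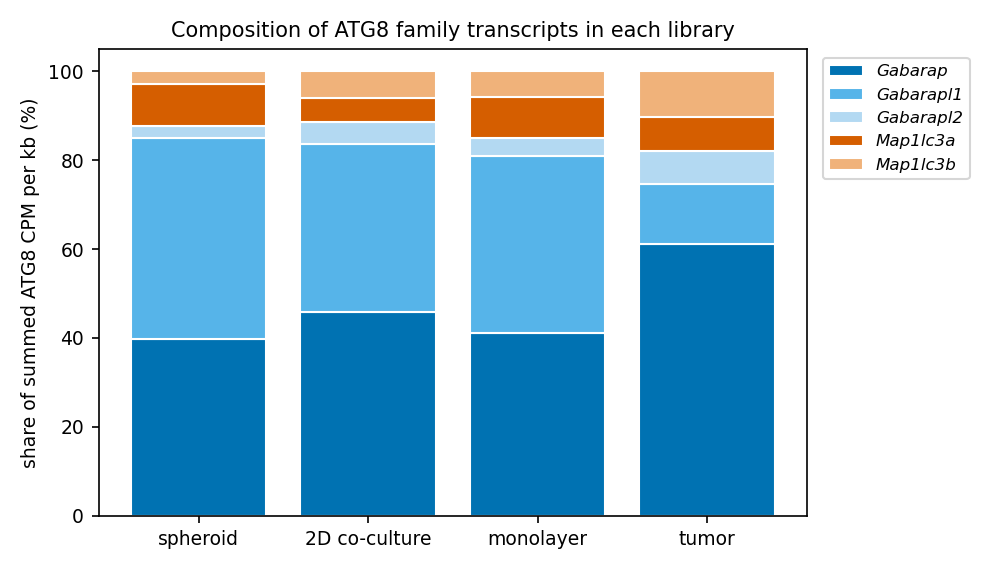
Share of each ATG8 gene in the family's summed reads per kb of transcript, as stacked bars from 0 to 100% for each library. Gabarapl1 goes from 45.2% in spheroids to 13.4% in the tumor, where Gabarap reaches 61.2%.

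The comparisons that follow set pairs of the same 4 libraries side by side, so they share libraries and are not independent. A gene is counted as higher or lower when its CPM, with 1 CPM added to each value, differed by over 2-fold, and the share of all 12728 genes past the same fold is given as the background. Ratios of single genes have nothing added.

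Against the monolayer, most of the 10 genes in the spheroid library lay within 2-fold. In spheroids, 0 of 10 were over 2-fold higher, where 11.2% of all genes were, and 1 of 10, Nbr1, was lower, where 17.9% of all genes were. The log2 ratio of Nbr1 was -2.14 (-2.18 to -2.10), a 4.41-fold lower level. The other ratios were small and mostly positive: 0.89 for Gabarapl1, 0.76 for Map1lc3a, 0.66 for Gabarap, 0.63 for Sqstm1, 0.59 for Wipi1, 0.58 for Ulk1, 0.12 for Gabarapl2, -0.40 for Map1lc3b and -0.66 for Optn. The median of all 10 genes, with 1 CPM added to each value, was 0.57, against 0.05 over all genes tested. After the GC and length correction described below it was 0.07, against 0 over all genes.

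In 2D co-culture, levels were mostly under those of the monolayer. None of the 10 genes was over 2-fold higher, where 3.79% of all genes were, and 3 were lower, where 9.51% of all genes were. These 3 were Nbr1 with a log2 ratio of -2.24 (-2.29 to -2.19), Optn with -1.64 (-1.71 to -1.57) and Map1lc3a with -1.12 (-1.18 to -1.06). Sqstm1 had a ratio of -0.76 (-0.77 to -0.76), and only Wipi1 lay above 0, at 0.08 (0.01 to 0.15), or at -0.01 after the GC and length correction described below. The median of the 10 was -0.46, against 0.01 over all genes.

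Set directly against the 2D co-culture, which also contained NIH/3T3 cells, the spheroid had 4 of the 10 genes over 2-fold higher, where 9.54% of all genes were, and 0 lower, where 8.46% were. Map1lc3a had a log2 ratio of 1.88 (1.82 to 1.93), above that of 98.1% of all genes tested. Sqstm1 had 1.39 (1.39 to 1.40), above that of 95.5%, Gabarapl1 1.35 (1.33 to 1.36) and Ulk1 1.05 (0.999 to 1.10). As Sqstm1 was in part chosen by its spheroid reads, its place in this count and its percentile are descriptions. Optn lay just inside 2-fold at 0.98, while Nbr1 at 0.10 and Map1lc3b at -0.04 (-0.09 to 0.01) stood near 0. The low Nbr1 level was thus common to both libraries grown with fibroblasts, and the low Optn level was more marked in 2D co-culture. The median of the 10 was 0.91, against -0.01 over all genes.

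The widest differences were against the tumor, where the background was also widest. The spheroid had 5 of the 10 genes over 2-fold higher than the tumor, where 26.8% of all genes were, and 1 lower, where 27.6% were. Sqstm1 had a log2 ratio of 3.38 (3.38 to 3.39), above that of 99.3% of all genes tested, and Gabarapl1 had 2.97 (2.95 to 3.00), above that of 98.5%. Ulk1 followed at 2.28 (2.22 to 2.34), Map1lc3a at 1.52 (1.47 to 1.56) and Wipi1 at 1.05 (0.99 to 1.11). The place of Sqstm1 in this count and its percentile draw in part on the spheroid reads by which it was chosen. Nbr1 was 2.77-fold lower in spheroids, with a log2 ratio of -1.47 (-1.52 to -1.43). Gabarap at 0.59, Gabarapl2 at -0.21, Optn at -0.39 and Map1lc3b at -0.71 lay within 2-fold.

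Sqstm1, Gabarapl1 and Ulk1 were over 2-fold higher than the tumor in the 2D cultures too. In the monolayer these were the 3 of 10 that were higher, where 18.2% of all genes were, and 0 of 10 were lower, where 14.8% were. Their log2 ratios were 2.75, 2.08 and 1.70, and that of Sqstm1 lay above 99.5% of all genes tested. The spheroid reads by which it was chosen enter this comparison through the TMM factors only. Its rank in the monolayer was 9, however, and the choice may still bear on the percentile. In 2D co-culture the same 3 of 10 were higher, where 18.8% of all genes were, with ratios of 1.99, 1.63 and 1.23. Nbr1 at -1.57 and Optn at -1.37 were the 2 of 10 that were lower there, where 20.9% of all genes were.

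**Figure D3:**
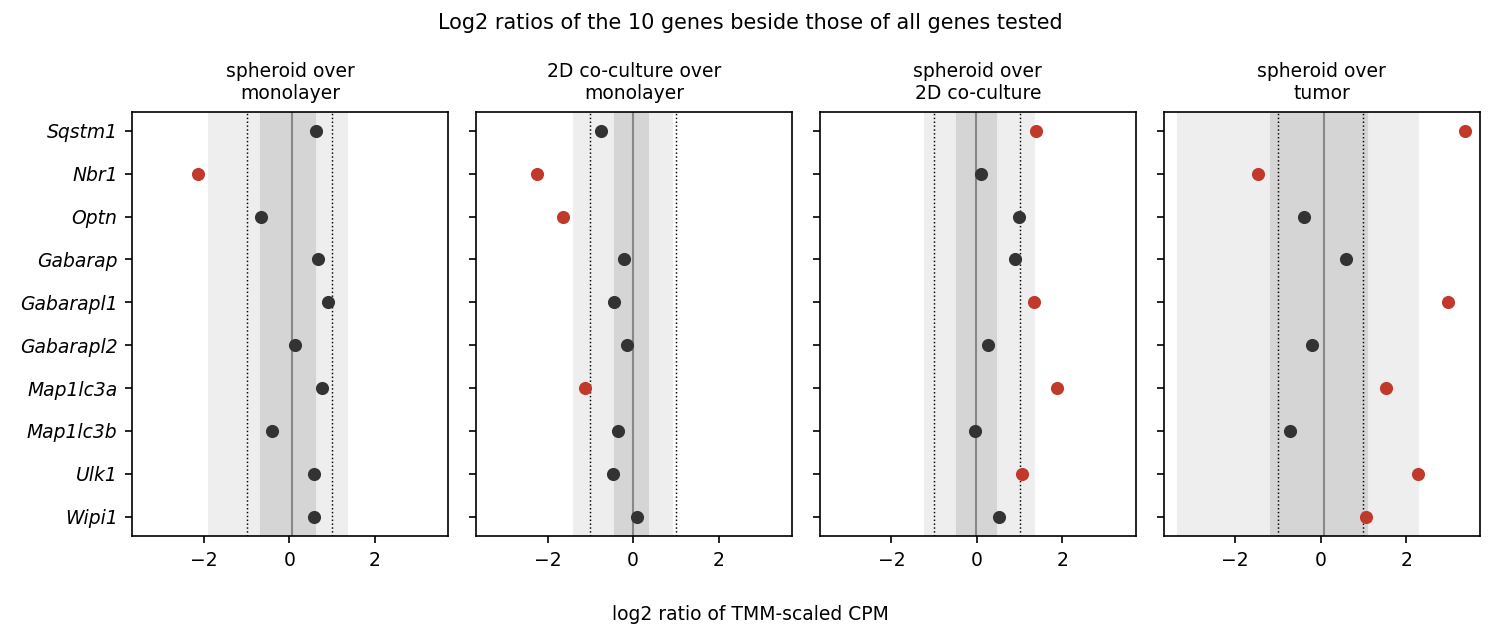
Log2 ratios of the 10 genes in 4 of the 6 comparisons of libraries, as points that are red past 2-fold (dotted lines), beside all 12728 genes tested, shown by their median (grey line), interquartile range (dark band) and range from the 5th to the 95th percentile (light band). Sqstm1 and Gabarapl1 lie at 3.38 and 2.97 for spheroid over tumor, and Nbr1 lies at -2.14 for spheroid over monolayer.

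GC content moved with these ratios over the whole transcriptome. Over 12466 genes with annotation, Spearman's correlation of the log2 ratio with GC content was 0.489 for spheroid over monolayer, 0.410 for spheroid over 2D co-culture, 0.212 between the 2D cultures and 0.547 for spheroid over tumor. These are descriptions of pairs of libraries across genes, which are not independent. With transcript length the correlation was -0.397 for spheroid over monolayer and -0.138 for spheroid over tumor. The transcripts of Map1lc3a, with 63.1% GC, and Ulk1, with 58.0%, lay above the median of 50.3%, Sqstm1 had 54.0% and Gabarapl1 52.7%, and Nbr1 with 47.7% and Gabarapl2 with 45.3% lay under it. Ratios were therefore also taken relative to genes of like GC content and length.

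After this correction, Sqstm1 and Gabarapl1 stayed over 2-fold higher in spheroids than in the tumor, at log2 ratios of 2.45 and 2.33, while Ulk1 stood at 0.70, Map1lc3a at 0.59 and Wipi1 at 0.84, all within 2-fold. Ulk1 against the tumor was 0.50 in the monolayer and 0.20 in 2D co-culture, so its call was lost in these comparisons too. Map1lc3a in spheroids against the monolayer went from 0.76 to -0.03. Map1lc3b in spheroids against the tumor passed 2-fold at -1.19, and Gabarapl2 in that comparison went from -0.21 to 0.26. Nbr1 stayed over 2-fold lower at -1.53 in spheroids and -1.99 in 2D co-culture, each against the monolayer. In spheroids against the 2D co-culture, Map1lc3a at 1.30, Gabarapl1 at 1.19 and Sqstm1 at 1.16 stayed over 2-fold higher and Ulk1 at 0.82 did not. Scaling by plain totals in place of TMM also ended the calls of Wipi1 in spheroids over tumor, at 0.69, and of Ulk1 in spheroids over 2D co-culture, at 0.97, and in 2D co-culture over tumor, at 0.96.

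**Figure D4:**
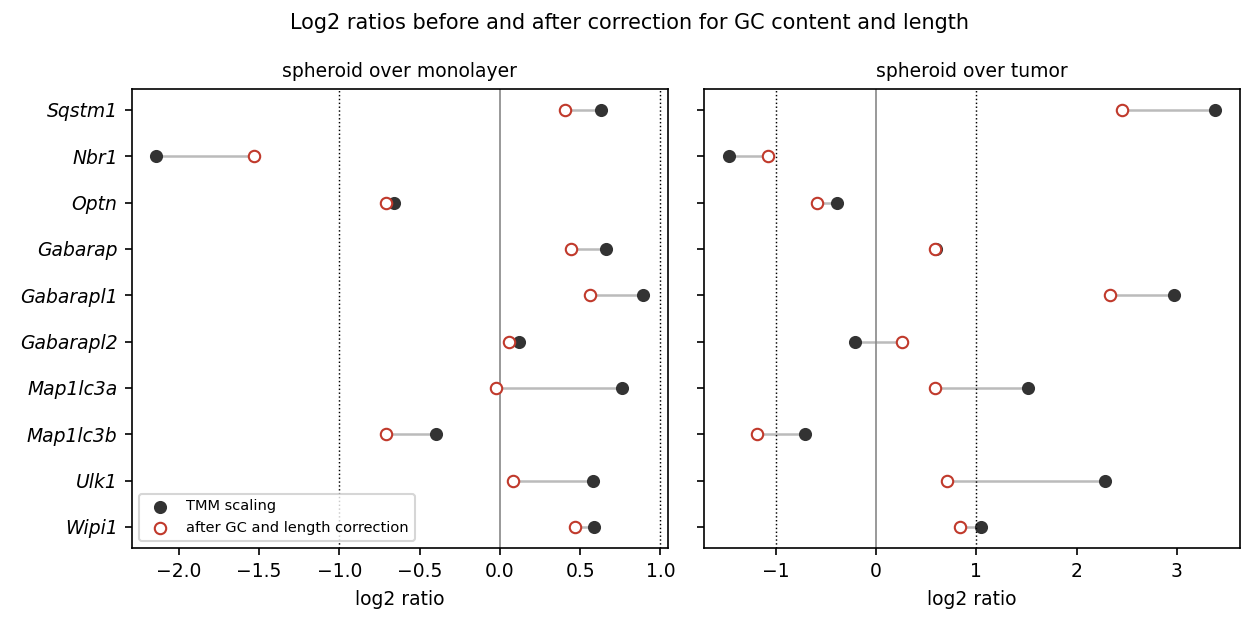
Log2 ratios before (filled) and after (open) the correction for GC content and length, for spheroid over monolayer and spheroid over tumor, with dotted lines at 2-fold. Ulk1 moves from 2.28 to 0.70 and Sqstm1 from 3.38 to 2.45 in the comparison with the tumor.

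Profiles over the 4 libraries were compared by the distance between log2(CPM + 1) values after each gene's mean was removed, among 9588 genes that averaged at least 10 CPM. The genes nearest to Sqstm1 were Cep170b at a distance of 0.129, Dok7 at 0.155, Adgrg1 at 0.224, Tnfrsf12a at 0.248 and Trnp1 at 0.281. The nearest of the 10 was Gabarapl1 at 0.488. Ulk1 also had Gabarapl1 as its nearest of the 10, at 0.535, and had Klc2 as its nearest gene of all, at 0.0335. Map1lc3b and Gabarapl2 were each other's nearest at 0.412, and so were Gabarap and Wipi1 at 0.579. Nbr1 stood most alone, with Optn nearest at 1.07, and had Ercc5 as its nearest gene of all at 0.192. With 4 libraries many genes share a profile, and such likeness is a description.

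The rest of the pathway was read from 84 other autophagy genes in 9 lists by role, of which 83 averaged at least 1 CPM. In this and the following paragraphs, their values are given without the correction for GC content and length. How far it would move them was not tested. Calcoco2, the gene of the receptor NDP52, had no read in any library. In spheroids against the monolayer, 7 of the 83 were over 2-fold higher, where 11.2% of all genes were, and 18 lower, where 17.9% were, with a median of -0.12 against 0.05 over all genes. In 2D co-culture, 0 of the 83 were higher (3.79% of all genes) and 14 lower (9.51%), with a median of -0.30 against 0.01. Spheroids had 8 genes higher than 2D co-culture (9.54% of all genes) and 2 lower (8.46%). Against the tumor, spheroids had 27 higher (26.8% of all genes) and 17 lower (27.6%), the monolayer 24 higher (18.2%) and 6 lower (14.8%), and 2D co-culture 19 higher (18.8%) and 14 lower (20.9%).

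Several other cargo receptors were lower in both co-cultured libraries, as Nbr1 was. Of 7 tested, 4 were over 2-fold lower in spheroids than in the monolayer (Tax1bp1, Ncoa4, Wdfy3 and Stbd1), the same 4 and Calcoco1 were lower in 2D co-culture, and 0 were higher in either. Of all genes, 17.9% were lower in spheroids and 9.51% in 2D co-culture. Tax1bp1, a ubiquitin-binding receptor that acts with p62 and NBR1, stood at 237 CPM in the monolayer, 222 CPM in the tumor, 44.8 CPM in spheroids and 33.3 CPM in 2D co-culture. Ncoa4, the receptor that brings ferritin to autophagosomes, stood at 93.9 CPM in the tumor, 57.7 CPM in the monolayer, 15.2 CPM in 2D co-culture and 10.8 CPM in spheroids. For both, the co-cultured libraries were the lower pair, as they were for Nbr1. Among the 12 receptors of mitochondria and ER, Bnip3, a mitophagy receptor known to respond to low oxygen, stood at 500 CPM in the tumor, 233 CPM in spheroids, 130 CPM in 2D co-culture and 110 CPM in the monolayer.

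Of the 8 genes of the class III PI3K complex, which makes phosphatidylinositol 3-phosphate on the growing membrane, Pik3c3 and Pik3r4 were over 2-fold lower in spheroids than in the monolayer, where 17.9% of all genes were, and 0 were higher, where 11.2% were. Of the 4 further genes of the initiation complex, Rb1cc1, the scaffold known as FIP200, was the only one past 2-fold between cultures. It was lower than the monolayer in spheroids, where 17.9% of all genes were lower, and in 2D co-culture, where 9.51% were. It stood at 27.9 CPM in the tumor, 24.7 CPM in the monolayer, 6.88 CPM in spheroids and 4.83 CPM in 2D co-culture. Atg13, which binds ULK1, stood at 128 CPM in spheroids, 74.3 CPM in the monolayer, 66.2 CPM in 2D co-culture and 28.7 CPM in the tumor, the same order as Ulk1. Atg9a, the membrane protein of the vesicles that seed the autophagosome, stood at 183 CPM in spheroids, 105 CPM in 2D co-culture, 86.1 CPM in the monolayer and 37.2 CPM in the tumor. Among the 11 genes that process and conjugate ATG8, 1 was higher and 0 lower in spheroids than in the monolayer, where 11.2% of all genes were higher and 17.9% lower. This was Atg16l2, at 38.4 CPM in spheroids, 15.0 CPM in the monolayer, 9.47 CPM in 2D co-culture and 5.85 CPM in the tumor.

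At the end of the pathway, 6 of the 13 genes of fusion with lysosomes were over 2-fold lower in spheroids than in the monolayer and 0 higher, with a median of -0.87. Of all genes, 17.9% were lower and 11.2% higher, with a median of 0.05. The widest range was that of Vps41, a subunit of the HOPS tethering complex, at 78.4 CPM in the tumor, 52.7 CPM in the monolayer, 8.90 CPM in spheroids and 8.12 CPM in 2D co-culture. A list of 9 genes held kinases that act on receptors or on ULK1 and other subunits of their complexes. Of these, Tbk1 and Mtor were over 2-fold lower in spheroids than in the monolayer and 0 higher, against 17.9% and 11.2% of all genes. Tbk1, which phosphorylates optineurin and p62, stood at 49.4 CPM in the monolayer, 39.8 CPM in the tumor, 26.7 CPM in 2D co-culture and 15.8 CPM in spheroids.

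Among 11 transcriptional regulators of autophagy genes, Atf4, Ddit3, Tfe3 and Tfeb were over 2-fold higher in spheroids than in either 2D culture, and Mitf was lower. Over all genes, the shares were 11.2% higher and 17.9% lower against the monolayer, and 9.54% higher and 8.46% lower against 2D co-culture. Tfe3, a partner of TFEB in the control of lysosome genes, stood at 214 CPM in spheroids, 88.4 CPM in the monolayer, 87.3 CPM in 2D co-culture and 26.0 CPM in the tumor. Tfeb, named after its values were seen, stood at 93.3 CPM in spheroids and between 30.5 and 34.9 CPM in the other libraries. Mitf, the melanocyte lineage factor of the same family, was highest in the tumor and lowest in spheroids, going from 708 CPM in the tumor over 416 CPM in the monolayer and 223 CPM in 2D co-culture to 70.3 CPM in spheroids. Atf4, the factor of the amino acid and ER stress response, stood at 2713 CPM in spheroids, 1229 CPM in 2D co-culture, 671 CPM in the monolayer and 407 CPM in the tumor. Its order of the 2D cultures was thus the reverse of that of Sqstm1, and a link between the levels of these genes was not tested.

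**Figure D5:**
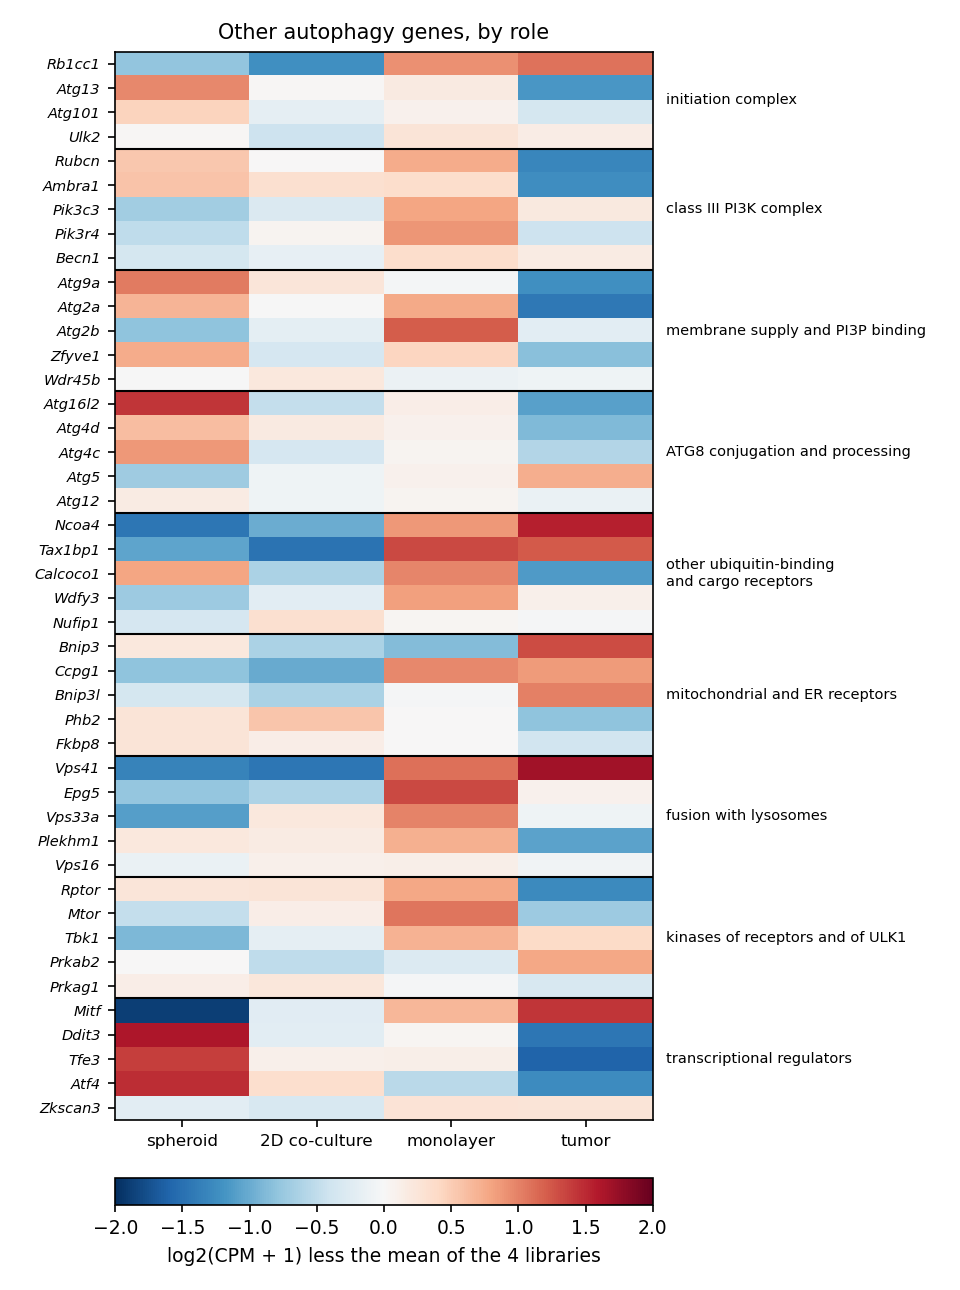
Other autophagy genes by role, up to 5 per list chosen by range and level, as log2(CPM + 1) less each gene's mean over the 4 libraries. Tax1bp1, Ncoa4 and Vps41 are blue in both co-cultured libraries and red in the monolayer and the tumor, while Atf4, Ddit3 and Tfe3 are reddest in spheroids.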

How the data were processed

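RNA was sequenced from 4 libraries, 1 per condition: spheroid, 2D co-culture, monolayer and tumor. The authors deposited their unnormalized read counts, whole numbers, as 1 table with a column for each library. The submitters' notes name Trimmomatic, STAR, featureCounts and mm10, and the sources used here give no versions, strand setting or treatment of reads with several matches. Per the labels, libraries were poly(A)-selected and read from both ends. Columns were matched to conditions by their labels. The 10 genes and all lists were chosen with earlier results of these data known.

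Counts were scaled to CPM with TMM factors of edgeR 4.0.16 in R 4.3.3 (spheroid 0.908, 2D co-culture 0.963, monolayer 0.984, tumor 1.16). Other steps used Python 3.11.15, numpy 2.4.6, pandas 2.3.3, scipy 1.17.1 and matplotlib 3.10.9. Intervals are exact Clopper-Pearson intervals of a gene's share of its library, or, for a ratio, of how a gene's reads divide between both libraries, and PCR reads are not independent molecules. A count of 3 reads came to 0.0185 to 0.0262 CPM. Transcript length and GC content were taken from the RefSeq-linked transcripts of GENCODE vM21, on GRCm38, for 97.9% of the genes tested, and in the correction each log2 ratio was taken less the median of its class, with genes sorted into 10 GC classes and 10 length classes. Scripts were tested on simulated data. The NOISeq and GFOLD calls of the study were not repeated. Alternatives were DESeq2 1.42.0 size factors, plain totals, upper quartiles, TMM factors of the libraries compared alone, an added 0.1 CPM, folds of 1.5 and 3, and the correction above.

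Named were the 10 genes, per list of other autophagy genes the up to 4 of widest range and the 1 of narrowest range among those with a mean of at least 10 CPM, the 5 genes nearest in profile to Sqstm1, the gene nearest to each other one of the 10, and the 2 markers per cell type highest in the tumor. Protein sequences were not used here.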

Additional observations from a re-analysis of the deposited data

Results flagged for a closer look

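The levels of 2 genes lay over 1.5-fold from the monolayer on opposite sides in the spheroid and 2D co-culture libraries. Sqstm1 was over 1.5-fold higher in spheroids and over 1.5-fold lower in 2D co-culture than in the monolayer, and its log2 ratio of spheroid over 2D co-culture was 1.39. Map1lc3a met the same condition with a log2 ratio of 1.88. Gabarapl1, Ulk1, Gabarap and Gabarapl2 also lay on opposite sides, but by less than 1.5-fold on at least 1 side. The share of all genes that meet the condition was not counted. Both contrasts share the monolayer library, and the difference was not tested, since each condition has 1 library. Sqstm1 was in part chosen by its spheroid reads. In spheroids against the monolayer its log2 ratio of 0.63 became 0.51 with plain totals, 0.54 with TMM factors of these libraries alone and 0.40 after the correction for GC content and length, all under 1.5-fold. That of Map1lc3a became -0.03 after the same correction.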

How the results depend on the processing

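No paired analysis was possible because there is 1 library per group, and for the same reason no replicate could be left out. Of the 60 ratios of the 10 genes over the 6 comparisons, 55 kept their sign and 52 kept their side of 2-fold under the 5 other scalings and corrections of single ratios. All 22 ratios past 2-fold kept their sign under these, and 16 stayed past 2-fold in each. The correction for GC content and length left 2 of 10 genes over 2-fold higher in spheroids than in the tumor (16.7% of all genes) and put 2 lower (21.2%). Total counts put 2 lower in that comparison (33.5% of all genes), and upper quartiles put 1 higher in spheroids than in the monolayer (14.2%). At a fold of 1.5, 4 genes were higher (25.9% of all genes) and 2 lower (27.1%) in spheroids than in the monolayer. At this fold 2 were lower in spheroids than in the tumor (35.2%) and 5 higher in the monolayer than in the tumor (32.3%). At a fold of 3, 1 was lower in 2D co-culture than in the monolayer (3.39% of all genes). With the same fold, 1 was higher in spheroids than in 2D co-culture (3.26%). Against the tumor, 3 were higher (14.27%) and 0 lower (19.03%) in spheroids, and 0 were lower in 2D co-culture (13.89%). The median log2 ratio of the 10 genes kept its sign in each comparison under the settings tried, but in spheroids against the monolayer the correction for GC content and length brought it from 0.57 to 0.07. Total counts moved the median log2 ratio of all genes, spheroid over tumor, from 0.08 to -0.25. The depth limits the counting error alone, and the spread between cultures or animals is unknown.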
